A study of Homo sapiens with 4 samples.

Results

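Laminin-332 and the hemidesmosome fasten the basal keratinocyte to the basement membrane. The genes described here are LAMA3, LAMB3, COL17A1, COL7A1, DST, PLEC, CD151 and LAMA5, which were chosen by name from the tables, 8 of the 58735 genes listed. They were measured by RNA-seq of poly-A RNA in HaCaT, an immortalized human keratinocyte line. The siControl group was labelled as wild type and received normal control siRNA, and the siALKBH5 group received siRNA against ALKBH5, which encodes a demethylase of N6-methyladenosine (m6A) in RNA. Both groups were transfected in six-well plates with 200 pmol siRNA and Lipofectamine 3000, and each holds 2 libraries. The labels do not say which ALKBH5 siRNA was used, how long after transfection RNA was taken, or whether the libraries of a group came from separate cultures, so the p-values measure the spread between these libraries, which may be technical.

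In the epidermis, laminin-332 is a trimer that holds the alpha 3 and beta 3 chains, secreted by basal keratinocytes and bound by the integrins alpha 6 beta 4 at hemidesmosomes and alpha 3 beta 1 at focal contacts. Inside the cell, the plakins encoded by DST and PLEC tie the integrin and collagen XVII to keratin filaments, and outside it collagen VII forms the anchoring fibrils that reach into the dermis. During re-epithelialization keratinocytes take hemidesmosomes apart, migrate over freshly laid laminin-332 and then build them again, and inherited loss of these components causes blistering of the skin.

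The knockdown of ALKBH5 was accompanied by small changes in 4 of the 8 genes, 2 lower and 2 higher, where 17.3% of all genes tested were lower and 19.3% were higher. LAMA3 and DST were higher by 10.5% and 13.7%, and CD151 and LAMA5 were lower by 17.1% and 9.80%. LAMB3, COL17A1, COL7A1 and PLEC were not called, with means in siALKBH5 between 98.0% and 102% of those in siControl. In bulk RNA, a change in the number of cells that express a gene and a change in RNA per cell cannot be told apart.

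Library totals lay between 16017502 and 18837807 counts, and the 8 genes took between 0.371% and 0.391% of them. For ALKBH5, 1512 and 1576 reads were counted in siControl, against 956 and 816 in siALKBH5, and its mean CPM (counts scaled to the library total after TMM scaling) in siALKBH5 was 55.5% of that in siControl. The keratinocyte label was matched by the basal marker KRT14, at 5570 to 5673 CPM in siControl. The simple epithelium marker KRT19 stood at a similar level, 5728 and 5487 CPM in siControl. Of the 3 simple epithelium markers KRT8 and KRT18 were higher in siALKBH5 and KRT19 was lower. Their summed level was 7009 to 7229 CPM in siControl and 7063 to 7347 CPM in siALKBH5. Of the 6 basal markers 4 were lower and 2 were higher in siALKBH5. KRT5 and KRT14 were higher (log2 fold changes of 0.68 and 0.22). KRT15, TP63, ITGA6 and ITGB4 were lower (-0.48, -0.091, -0.070 and -0.058). The summed level of the 6 basal markers, in which these changes partly cancel, was 29310 to 29510 CPM in siControl and 30210 to 30250 CPM in siALKBH5. The 6 proliferation genes, which include MKI67, were all higher in siALKBH5, with a summed level of 976 to 984 CPM in siControl and 1612 to 1618 CPM in siALKBH5. The 6 suprabasal markers moved both ways, with IVL, KRT10 and FLG lower (log2 fold changes of -0.47, -0.29 and -0.49), KRT1 higher (0.27) and the other 2 not called, while their summed level was 1758 to 1772 CPM in siControl and 1737 to 1767 CPM in siALKBH5. The part of proliferation and of the basal or suprabasal state in the changes below was not tested. Of the 6 fibroblast markers 3 passed the expression filter and 2 were lower, DCN and LUM (log2 fold changes of -1.2 and -1.1). COL1A1, which makes up most of the sum of the 6, was not called (-0.043). Their summed level was 21.9 to 22.8 CPM in siControl and 18.7 to 19.1 CPM in siALKBH5. Of these markers COL1A2 and PDGFRB had 0 counts in all libraries and COL3A1 at most 3, whereas COL1A1 had 267 to 310 counts and DCN 24 to 71. The endothelial marker CDH5 was counted 231 and 237 times in siControl, against 151 and 147 times in siALKBH5, and was lower (log2 fold change -0.69), while PECAM1 had at most 1 count. The part of these markers in the changes below was not tested either.

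The starts of these genes are shown first, because AP-1 binding to the laminin-332 promoters is well known in keratinocytes. RefSeq windows on GRCh38.p14, which run from 250 bases before to 50 bases after an annotated start, were found for 6 of the 8 genes, 10 windows in all. The AP-1 letters TGANTCA, which read the same on both strands, were in 3 of these windows, against 7.71% of the 35116 windows of all genes. The 3 windows belong to LAMA3, LAMB3 and DST. LAMB3 and DST have 3 windows each, and their other windows held no match. The LAMB3 match lies at its start 1092 bases inside the annotated gene. The DST match lies at its outermost start, and the window at the start of its 8999-base transcript held none. The sites are printed below in the direction of the gene with the motif in capitals, and the RefSeq start of LAMA3 lies 183577 bases inside the annotated gene.
LAMA3, chr18:23872885-23872911, plus strand: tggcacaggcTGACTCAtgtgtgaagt
LAMA3, chr18:23872941-23872967, plus strand: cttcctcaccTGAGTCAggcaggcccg
LAMB3, chr1:209651425-209651451, minus strand: tcagccactcTGACTCAttcactttgg
DST, chr6:56954789-56954815, minus strand: cgctgtctgcTGAGTCAtggcaagcgc
Of the genes with a match, LAMA3 and DST rose and LAMB3 was not called. Counts per gene do not show which start the reads came from, so a match cannot be tied to a change. The windows were also searched on either strand for the GC box letters GGGCGG and the TATA box letters TATAAA. The GC box, in 45% of the windows of all genes, was in windows of LAMA3, LAMB3, COL7A1, DST and LAMA5. The TATA box, in 11.5% of the windows of all genes, was in windows of COL17A1 and COL7A1. A match is only a description of the letters, and binding was not measured in these data.

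All 8 genes passed the expression filter of edgeR, with between 1457 and 20583 counts in a library, so the counting error of a single value was between 0.697% and 2.62%. The groups were compared with edgeR's quasi-likelihood test, and a gene was called at a Benjamini-Hochberg adjusted p under 0.05 over all 15075 genes tested. By this rule 2 of the 8 genes were lower and 2 were higher, a count near the shares of all genes tested. The median log2 fold change was 0.00036 for the 8 genes and -0.0081 for all genes tested, and the median size of the log2 fold change was 0.088 for the 8 genes and 0.20 for all. With the additional cutoff of the study, an absolute log2 fold change of 1 or more, 0 of the 8 genes were called by edgeR or by DESeq2, although 4 had an unadjusted p under 0.05 by each tool. This cutoff was passed by 1.3% of all genes tested in the lower direction and 1.62% in the higher direction.

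**Figure D1:**
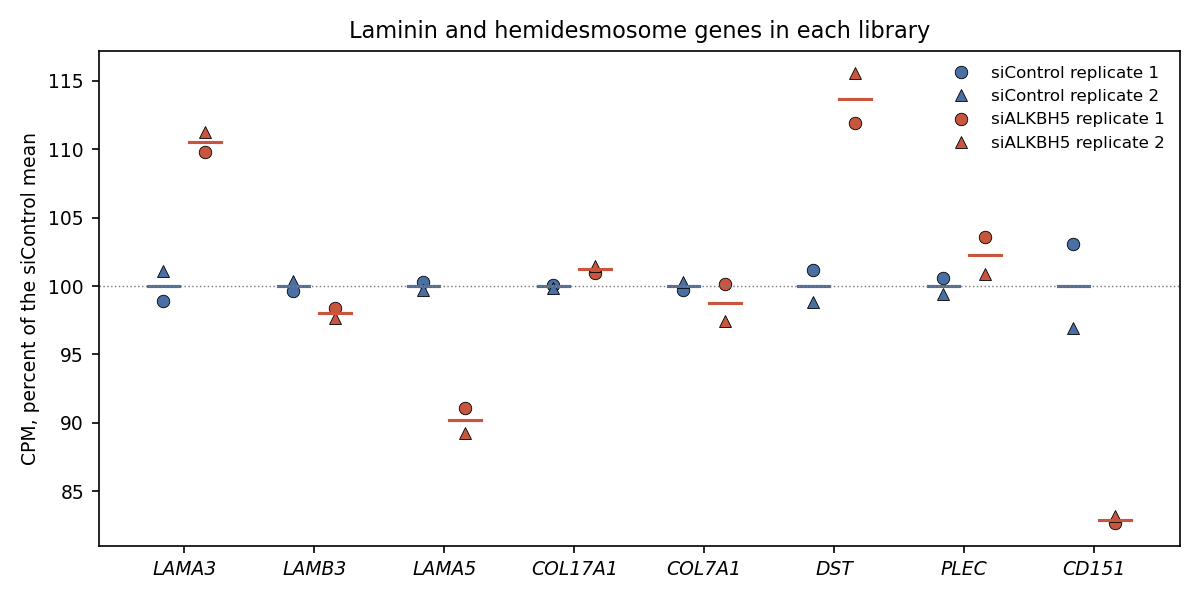
CPM of the 8 genes in each library, in percent of the siControl mean of the gene; circles are replicate 1, triangles replicate 2, and bars the group means. LAMA3 and DST sit above and LAMA5 and CD151 below their siControl libraries, with siALKBH5 means between 82.9% and 114% of siControl.

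LAMA3 encodes the alpha 3 chain of laminin-332, the chain that integrins bind. The gene (ENSG00000053747) is annotated on GRCh38 at chromosome 18, 23689443 to 23956222, plus strand. It was counted 3145 and 3591 times in siControl, against 4048 and 3615 times in siALKBH5. These correspond to 195 and 200 CPM in siControl and to 217 and 220 CPM in siALKBH5. Both siALKBH5 libraries were above both siControl libraries, and the gap between the groups was wider than the spread within either. The log2 fold change of LAMA3 was 0.14 (standard error, SE, 0.032 and adjusted p = 0.00051 by edgeR), with a 95% interval from 0.079 to 0.21. The ratio of siALKBH5 to siControl was nearly the same in both replicates, at 0.15 and 0.14 on the log2 scale.

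LAMB3 encodes the beta 3 chain, which is found in laminin-332 and few other laminins. The gene (ENSG00000196878, chromosome 1 from 209614870 to 209652466, minus strand) was counted 15202 and 17103 times in siControl, against 17405 and 15219 times in siALKBH5. Its level was 943.5 and 950.6 CPM in siControl and 931.9 and 924.8 CPM in siALKBH5. The siALKBH5 libraries were slightly below the siControl libraries. For LAMB3 the log2 fold change was -0.029 (SE 0.020 and adjusted p = 0.28 by edgeR), and the 95% interval allows a change between -4.68% and 0.810%. With scaling by library size only, the log2 fold change was -0.051 with an adjusted p of 0.041 by edgeR, so the call of LAMB3 depends on the scaling.

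The 95% intervals of LAMA3 and LAMB3 do not overlap, and the difference between their changes was not tested.

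**Figure D2:**
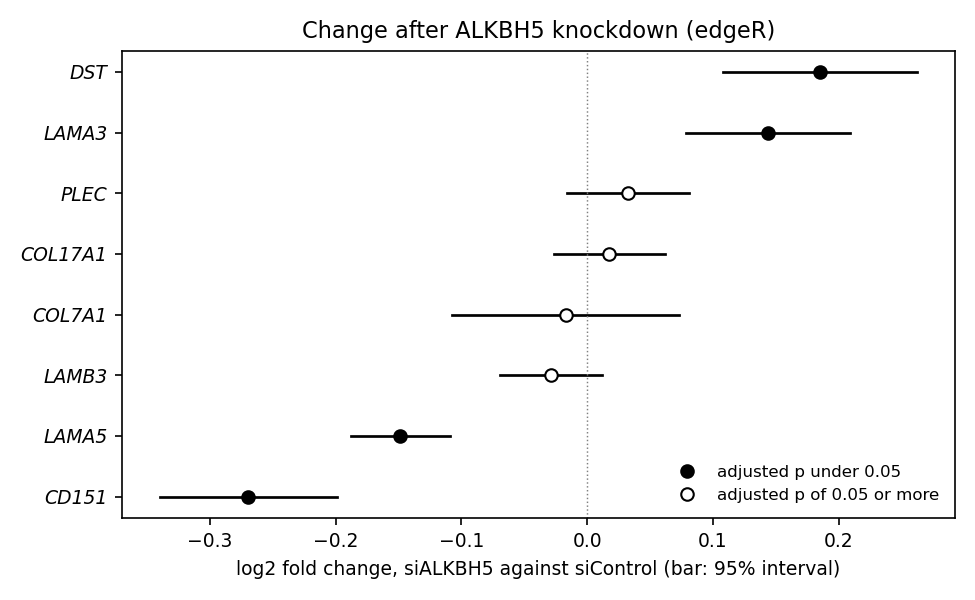
Log2 fold change of the 8 genes in siALKBH5 against siControl by edgeR, with 95% intervals as bars; filled points have an adjusted p under 0.05. The values run from -0.27 for CD151 to 0.19 for DST, and the intervals of LAMB3, COL7A1, COL17A1 and PLEC include 0.

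The alpha 3 and beta 3 chains of laminin-332 were far from equal in RNA level per length. With the length listed in the tables, the union of all exons of a gene, LAMB3 stood at 203 FPKM (counts scaled by gene length and library total) in siControl and LAMA3 at 13.5 FPKM. Within a library, the ratio of LAMB3 to LAMA3 FPKM was 15.1 and 14.9 in siControl and 13.5 and 13.2 in siALKBH5. So in both siALKBH5 libraries the alpha 3 transcript was nearer to the level of the beta 3 transcript than in either siControl library. Ratios between genes are given without a test.

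The size of the LAMA3 ratio depends on which transcript the reads come from, which counts per gene cannot tell. LAMA3 has a long form and a short form that starts inside the gene, and the short form is the one usually described in epidermal laminin-332. The coding GENCODE transcript nearest the internal RefSeq start is 5007 bases long, against 14678 bases in the listed length and 10661 bases in the longest coding transcript. With the length of this transcript the mean level of LAMA3 would be 39.7 FPKM in siControl and 43.2 FPKM in siALKBH5, and LAMB3 at its listed length would be 5.12 and 4.54 times as high. With each of these lengths LAMB3 remained above LAMA3. A fixed length scales all libraries alike, so the change in the ratio between the groups is the same at every length by construction. Whether the mix of long and short forms differed between the groups cannot be seen in counts per gene.

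LAMA5 encodes the alpha 5 chain of laminin-511 and laminin-521, the other major laminins of the epidermal basement membrane. The gene (ENSG00000130702, chromosome 20 from 62307955 to 62367312, minus strand) had the highest counts of the 8 genes, with 18526 and 20583 in siControl, against 19527 and 16845 in siALKBH5. Its level was 1150 and 1144 CPM in siControl and 1045 and 1024 CPM in siALKBH5. Neither siALKBH5 library reached the lower siControl library. For LAMA5 the log2 fold change was -0.15 (SE 0.019 and adjusted p = 1.7e-07 by edgeR), with a 95% interval from -0.19 to -0.11. The alpha chains LAMA3 and LAMA5 thus moved in opposite directions, and the ratio of LAMA5 to LAMA3 FPKM at the listed lengths was 6.05 and 5.89 in siControl and 4.95 and 4.79 in siALKBH5. Exons of LAMA5 share 244 bases with those of ADRM1 on the opposite strand, which is 1.71% of its exonic length. The library kit as described does not mark strand, so reads in these bases cannot be told apart. ADRM1 was counted 1170 and 1339 times in siControl, against 1695 and 1511 times in siALKBH5.

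COL17A1 encodes collagen XVII, the transmembrane collagen of the hemidesmosome. The gene (ENSG00000065618, chromosome 10 from 104031286 to 104085957, minus strand) was counted 10453 and 11649 times in siControl, against 12224 and 10825 times in siALKBH5. Its level was 648.7 and 647.4 CPM in siControl and 654.5 and 657.8 CPM in siALKBH5. The siALKBH5 libraries were just above the siControl libraries, and the means of the groups differed by 1.24%. For COL17A1 the log2 fold change was 0.018 (SE 0.022 and adjusted p = 0.57 by edgeR), and the 95% interval allows a change between -1.83% and 4.40%. Its direction turned with scaling by library size only, at -0.0045.

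COL7A1 encodes collagen VII of the anchoring fibrils. The gene (ENSG00000114270, chromosome 3 from 48564073 to 48595267, minus strand) had the fewest counts of the 8 genes, with 1460 and 1639 in siControl, against 1699 and 1457 in siALKBH5. Its level was 90.6 and 91.1 CPM in siControl and 91.0 and 88.5 CPM in siALKBH5. This was the gene among the 8 whose groups overlapped. COL7A1 had a log2 fold change of -0.017 (SE 0.044 and adjusted p = 0.81 by edgeR), and the 95% interval allows a change between -7.16% and 5.20%. Without siALKBH5 replicate 2 its direction turned, at 0.0040.

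DST encodes dystonin, whose epithelial form is a plakin that links keratin filaments to the hemidesmosome. The gene (ENSG00000151914, chromosome 6 from 56457987 to 56954628, minus strand) was counted 2106 and 2298 times in siControl, against 2700 and 2457 times in siALKBH5. Its level was 131 and 128 CPM in siControl and 145 and 149 CPM in siALKBH5. Both siALKBH5 libraries were above both siControl libraries. DST had a log2 fold change of 0.19 (SE 0.038 and adjusted p = 0.00020 by edgeR), with a 95% interval from 0.11 to 0.26. DST has 35 annotated transcripts with several starts, and counts per gene do not separate the epithelial form from the others.

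PLEC encodes plectin, the other plakin of the hemidesmosome inner plaque. The gene (ENSG00000178209, chromosome 8 from 143915147 to 143976734, minus strand) was counted 8187 and 9033 times in siControl, against 9773 and 8386 times in siALKBH5. Its level was 508 and 502 CPM in siControl and 523 and 510 CPM in siALKBH5. The siALKBH5 libraries were above the siControl libraries by a narrow margin. PLEC had a log2 fold change of 0.033 (SE 0.024 and adjusted p = 0.31 by edgeR), and the 95% interval allows a change between -1.11% and 5.78%. Within a library, the ratio of PLEC to DST FPKM at the listed lengths was 9.69 and 9.80 in siControl and 9.02 and 8.51 in siALKBH5. With the longest coding transcripts this ratio was 5.72 and 5.78 in siControl and 5.32 and 5.02 in siALKBH5, so its size depends on the length taken for DST. That of COL17A1 to COL7A1 was 11.2 and 11.1 in siControl and 11.3 and 11.6 in siALKBH5.

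**Figure D3:**
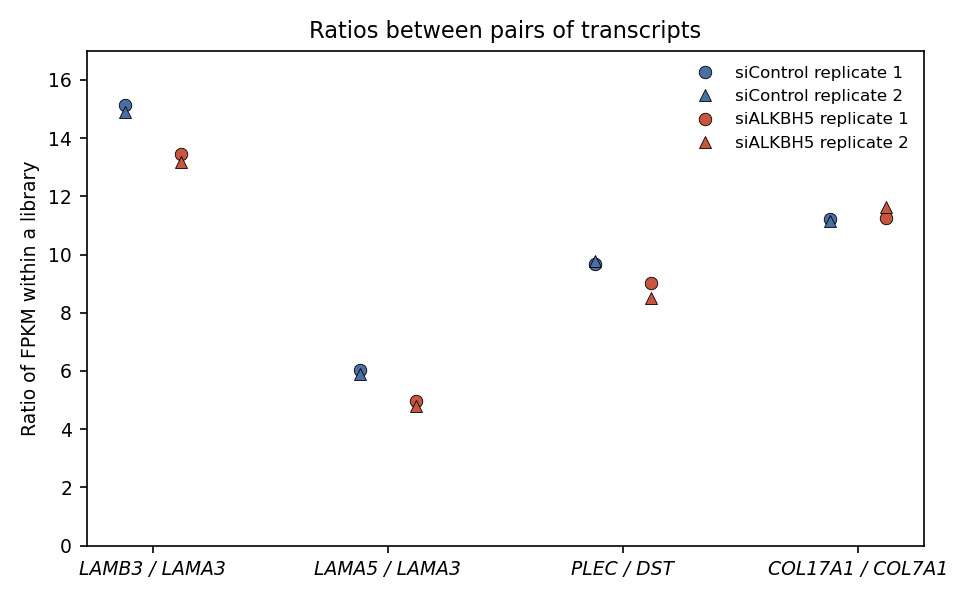
Ratio of FPKM between pairs of the genes within each library, with the listed gene lengths; circles are replicate 1 and triangles replicate 2. The LAMB3 to LAMA3 ratio was 15.1 and 14.9 in siControl and 13.5 and 13.2 in siALKBH5, and the siALKBH5 points lie lower for 3 of the 4 ratios and slightly higher for COL17A1 to COL7A1.

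CD151 encodes a tetraspanin that associates with the laminin-binding integrins in the membrane. The gene (ENSG00000177697, chromosome 11 from 832843 to 839831, plus strand) was counted 3468 and 3642 times in siControl, against 3223 and 2859 times in siALKBH5. Its level was 215 and 202 CPM in siControl and 173 and 174 CPM in siALKBH5. The groups did not overlap, with siALKBH5 lower, although the siControl libraries of CD151 had the widest spread among the 8 genes, with a coefficient of variation of 4.34%. For CD151 the log2 fold change was -0.27 (SE 0.035 and adjusted p = 1.2e-07 by edgeR), with a 95% interval from -0.34 to -0.20. This is the largest change of the 8 genes, and 61.9% of all genes tested had a smaller one in size. Exons of CD151 share 257 bases with those of POLR2L on the opposite strand, which is 6.53% of its exonic length, and POLR2L was counted 747 and 840 times in siControl, against 838 and 775 times in siALKBH5.

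In all, the siALKBH5 libraries lay wholly below the siControl libraries for 3 of the 8 genes and above them for 4. Among all genes tested these shares were 33.5% and 32.8%, so libraries that do not overlap were common in this comparison and are not particular to these genes. The fits that left out each library in turn gave log2 fold changes from 0.13 to 0.16 for LAMA3, from 0.16 to 0.21 for DST, from -0.31 to -0.22 for CD151 and from -0.16 to -0.13 for LAMA5, each with an adjusted p by edgeR of at most 0.0076.

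Across genes, levels can be compared only per length. At the listed lengths the order in siControl by mean FPKM was LAMB3 at 203 ± 1.15 (SD, n = 2), COL17A1 at 92.3 ± 0.0987 (SD, n = 2), LAMA5 at 80.8 ± 0.260 (SD, n = 2) and CD151 at 53.4 ± 2.30 (SD, n = 2). PLEC at 29.9 ± 0.243 (SD, n = 2), LAMA3 at 13.5 ± 0.218 (SD, n = 2), COL7A1 at 8.26 ± 0.0339 (SD, n = 2) and DST at 3.07 ± 0.0491 (SD, n = 2) followed. The closest neighbours, COL17A1 and LAMA5, differed 1.14-fold, which is more than the spread of either between libraries. The same order was found in siALKBH5, where LAMB3 had 196 FPKM and DST 3.44 FPKM.

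The listed length joins the exons of all transcripts, so a gene with many alternative exons appears lower. It was 1.09 times as long as the longest coding transcript for LAMB3, 1.89 times for DST and 2.38 times for CD151. With the length of the longest coding transcript, a setting chosen after seeing the data, CD151 moved from the fourth to the second place in siControl, at 127 ± 5.46 FPKM (SD, n = 2), above COL17A1 at 115 ± 0.123 FPKM (SD, n = 2) and LAMA5 at 101 ± 0.325 FPKM (SD, n = 2). LAMB3 stayed first at 221 FPKM and DST last at 5.80 FPKM in siControl. In siALKBH5, CD151 at 103.5 FPKM stood below COL17A1 at 114.3 FPKM with this length. The level of DST also depends on the transcript taken, and RefSeq gives it 3 starts. With the coding transcripts nearest to them, of 2108, 8999 and 17756 bases, the mean level in siControl would be 61.7, 14.4 and 7.32 FPKM, and that in siALKBH5 69.1, 16.2 and 8.20 FPKM. With the first and the second of these lengths DST would no longer be last, as COL7A1 stood at 9.86 FPKM with its longest coding transcript. The 2108-base transcript has 17 exons, against 98 in the longest coding transcript of DST. The value at 2108 bases would hold only if all DST reads came from that short form. RefSeq gives LAMB3 3 starts as well. With the coding transcripts nearest to those, of 908, 3931 and 4055 bases, the mean level of LAMB3 in siControl would be 1049, 242 and 235 FPKM. The 908-base transcript has 6 exons, against 23 in the others, so its value would hold only if all reads came from that short form.

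**Figure D4:**
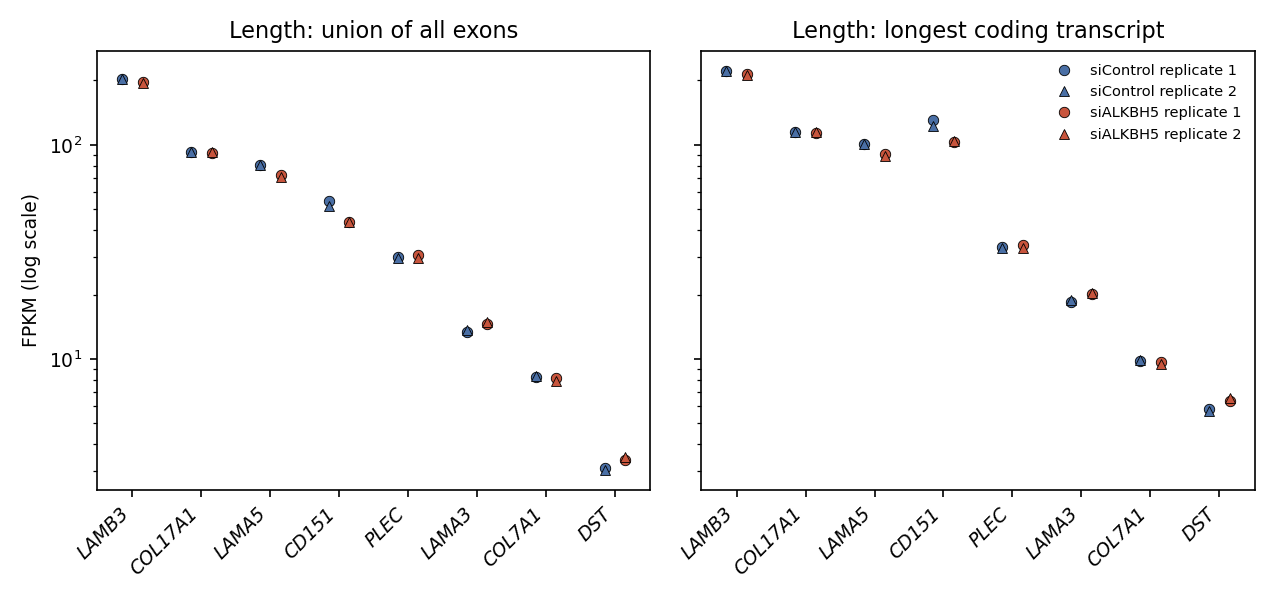
FPKM of the 8 genes in each library on a log axis, with the listed exon union on the left and the longest coding transcript on the right; circles are replicate 1 and triangles replicate 2. LAMB3 is highest at both lengths, at 203 and 221 FPKM in siControl, and CD151 changes place between the panels.

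Since ALKBH5 acts on m6A, the letters GGACT, a frequent context of m6A, were counted in the longest coding transcript of each gene. The density was highest in COL7A1 with 2.16 and COL17A1 with 2.11 per kilobase, and lowest in PLEC with 0.328 per kilobase, while the median over 19673 coding genes was 0.928 per kilobase. Of the called genes, the higher genes LAMA3 and DST had 0.657 and 0.847 per kilobase. The lower genes CD151 and LAMA5 had 1.21 and 1.40 per kilobase, and the value of CD151 rests on 2 matches. For LAMA3 and DST, counts per gene do not tell whether the longest transcript is the form expressed. The genes of the highest density, COL7A1 and COL17A1, were not called in either direction. This describes the letters of the transcripts, and methylation was not measured in the libraries used here.

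The neighbours of these genes in the basement membrane and the adhesion complex were taken from 7 lists with 71 genes, of which 63 passed the filter. Of these 63 genes, 11 were lower, 31 were higher and 21 were not called by edgeR at an adjusted p under 0.05, and their median log2 fold change was 0.11. Of all genes tested 17.3% were lower and 19.3% were higher, and the counts of each list below stand beside these shares.

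Among the 8 other laminin chains, 5 had enough counts, of which 3 were higher and 1 was lower. LAMC1, the gamma 1 chain, rose from 308 and 303 CPM to 350 and 354 CPM, at a log2 fold change of 0.20 (adjusted p = 2.3e-07 by edgeR). LAMB2, the beta 2 chain, fell from 281 and 269 CPM to 225 and 223 CPM, at a log2 fold change of -0.29 (adjusted p = 1.5e-09 by edgeR). LAMA2, a chain of muscle and nerve laminins, was counted 2 and 1 times in siControl, against 21 and 10 times in siALKBH5, which is 9.88-fold higher with a 95% counting interval from 3.08 to 50.5. It was the 1 gene of the lists past the fold change cutoff of the study, and it had few counts.

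Of the 8 genes of laminin receptors, 2 were lower, 3 were higher and 3 were not called. ITGA6, the integrin chain of the hemidesmosome that pairs with beta 4, was at 645 and 660 CPM in siControl and 620 and 624 CPM in siALKBH5, with a log2 fold change of -0.070 (adjusted p = 0.013 by edgeR). DAG1, which encodes dystroglycan, rose from 320 and 329 CPM to 476 and 458 CPM, at a log2 fold change of 0.53 (adjusted p = 3.3e-17 by edgeR).

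Of the 17 other basement membrane proteins, 14 were tested, and 6 were higher, 1 was lower and 7 were not called. AGRN, which encodes the heparan sulfate proteoglycan agrin, rose from 735 and 710 CPM to 852 and 824 CPM, at a log2 fold change of 0.21 (adjusted p = 1.7e-09 by edgeR). FREM2, a protein of the basement membrane below the epidermis, was counted 37 and 35 times in siControl, against 20 and 18 times in siALKBH5, a log2 fold change of -0.96 (adjusted p = 0.027 by edgeR).

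All 5 plakin family genes other than DST and PLEC were higher, with a median log2 fold change of 0.19. DSP, which encodes the desmosomal plakin desmoplakin, rose from 1220 CPM in each siControl library to 1377 and 1401 CPM in siALKBH5, at a log2 fold change of 0.19 (adjusted p = 4.9e-10 by edgeR). DST, at 0.19, was also higher, and PLEC, at 0.033, was not called.

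CD151 is a member of the tetraspanins, of which 12 others were examined and 11 tested, with 4 lower, 4 higher and 3 not called. CD63, a tetraspanin of endosomes, fell from 255 and 256 CPM to 214 and 225 CPM, at a log2 fold change of -0.22 (adjusted p = 8.4e-07 by edgeR). CD9, a surface tetraspanin of keratinocytes, rose from 955 and 981 CPM to 1059 and 1071 CPM, at a log2 fold change of 0.14 (adjusted p = 1.3e-06 by edgeR).

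Of 9 enzymes that cut laminin-332 or collagen XVII or act in their processing, 8 were tested, of which 2 were lower and the other 6 were not called. ADAM10, a membrane protease that sheds surface proteins, fell from 211 and 221 CPM to 189 and 191 CPM, at a log2 fold change of -0.19 (adjusted p = 2.7e-05 by edgeR). Of 12 genes of collagen folding and secretion, 10 were higher, 1 was lower and 1 was not called, with a median log2 fold change of 0.24. P4HB, a subunit of prolyl 4-hydroxylase, rose from 380 and 379 CPM to 443 and 440 CPM, at a log2 fold change of 0.22 (adjusted p = 1.3e-08 by edgeR). P4HA1, a catalytic subunit of the same enzyme, fell from 76.5 and 77.1 CPM to 63.7 and 57.6 CPM, at a log2 fold change of -0.34 (adjusted p = 5.0e-06 by edgeR). The collagen genes COL7A1 and COL17A1 were not called.

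**Figure D5:**
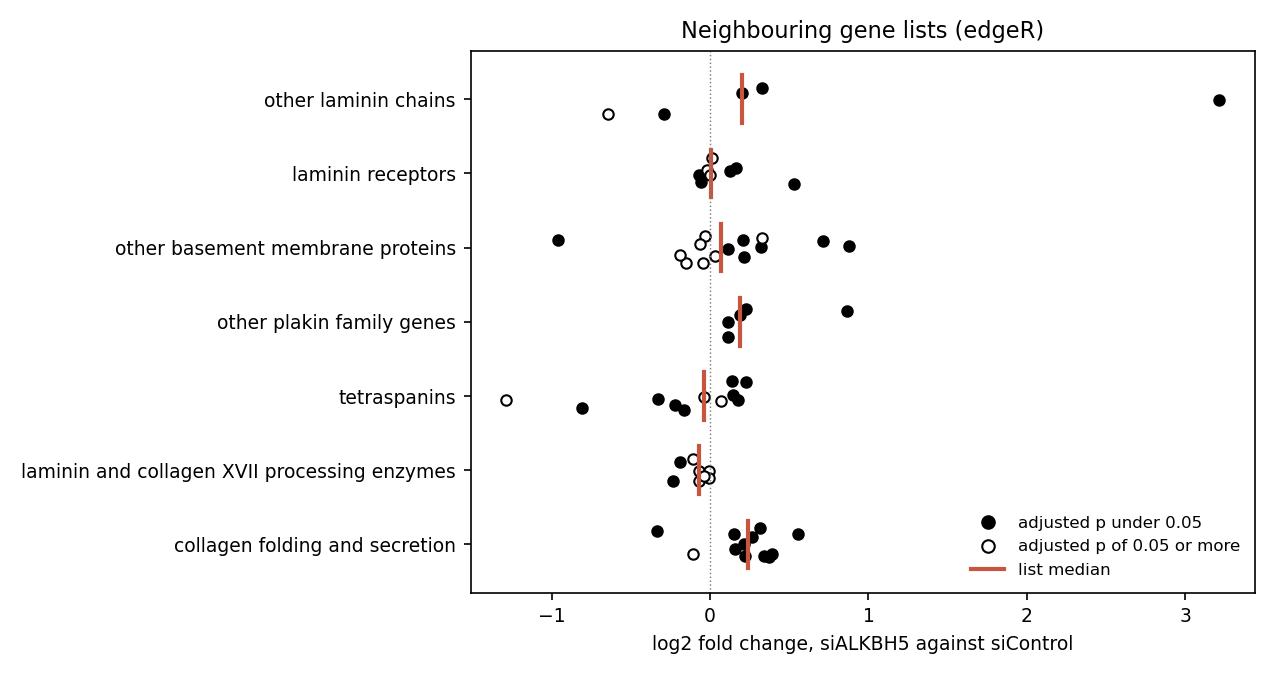
Log2 fold change of each tested gene in 7 lists, siALKBH5 against siControl by edgeR; filled points have an adjusted p under 0.05 and red bars are list medians. The plakin genes and nearly all genes of collagen folding lie above 0, with medians of 0.19 and 0.24, and the point near 3 is LAMA2.

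The genes whose pattern over the 4 libraries was nearest that of LAMB3 were COX7C at 0.0043, POLR1D at 0.0087 and LCOR at 0.0097. The measure was the Euclidean distance of centred log2 CPM among 9258 genes with a mean of at least 10 CPM. Centring takes the level out, and LAMB3 lay between 924.8 and 950.6 CPM, so genes near it here are those that barely varied. LAMB3 itself was not called, and the distance covers 4 libraries.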

How the data were processed

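The authors deposited 1 table per replicate with raw counts per gene for 1 siControl and 1 siALKBH5 library; the submitters' processing notes name HISAT2 2.0.5, featureCounts 1.5.0-p3, DESeq2 1.20.0 and hg38. FPKM from the authors, scaled separately in each table, were left out. The authors' log2 values and p-values, also deposited, compare 1 library with 1 and were left out too. All 58735 gene coordinates are those of GENCODE 29. Genes passing filterByExpr were scaled by TMM and compared by glmQLFit and glmQLFTest of edgeR (version 4.0.16, R version 4.3.3) without covariates, followed by Benjamini-Hochberg adjustment. The lowest library total was 16017502 counts. All per-sample columns were mapped to a sample. Intervals are 95% from the quasi-likelihood standard error. FPKM were recomputed from counts, listed gene length and library totals. Alternatives were DESeq2 1.42.0, other scalings and filters, a replicate block, the thresholds of the study and each library left out; the transcript lengths were added after seeing the data. Promoter windows came from RefSeq (GRCh38.p14).

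Named were the 8 genes, ALKBH5, from each list the lower and the higher called gene with the smallest adjusted p at a mean CPM of at least 1, list genes past both thresholds, and the 3 genes most like LAMB3. The genes and lists were chosen with earlier results of these data known. The steps were tested on simulated data. Another gene that the rule covered is not reported here.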

Additional observations from a re-analysis of the deposited data

How the results depend on the processing

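Under the fold change cutoff of the study, 0 of the 8 genes were lower and 0 higher by edgeR, against 2 and 2 without it, and of the list genes 0 were lower and 1 was higher, against 11 and 31. ALKBH5 itself, at -0.85, misses that cutoff. LAMA3, DST, CD151 and LAMA5 kept their direction and an adjusted p under 0.05 in the 10 other fits, which were DESeq2, its size factors in edgeR, scaling by library size alone, all genes unfiltered, a filter at mean count 10, the replicate block and each library left out (an arm of 1 library is then assumed to vary like the other group). Scaling by library size alone, which moved the median of all genes by -0.022 (log2), turned COL17A1 to -0.0045 and gave a call for LAMB3, at -0.051. With each library left out, COL7A1 ranged from -0.036 to 0.0040, ALKBH5 from -0.90 to -0.79, the list genes from 8 to 10 lower and from 26 to 29 higher, and the 8 genes stayed at 2 and 2. Same-numbered libraries deviated together only weakly (correlation 0.11 over 9259 genes), and with the replicate block 2 genes were lower and 2 were higher, and no call of the 8 genes changed. Counts per gene limit the account of LAMA3, DST and CD151, whose isoforms cannot be separated.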
